A study of Mus musculus with 18 samples.

Results

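Chronic intermittent hypoxia (CIH), in which the oxygen in the air falls and recovers again and again, was set against control in the cerebral cortex of young CD-1 mice, an outbred strain. The 6 arrays titled CIH-Cortex and Control-Cortex, of 18 in the series, were taken by their titles, 3 in each group. The mice were labelled male and aged 16 days. CIH had lasted 2 weeks from postnatal day 2, and the labels name no exposure for the controls; neither the oxygen levels nor the cycle length is stated there. Each array read 100 ng of whole-tissue RNA on 46120 probes of an Illumina Mouse-6 bead array. The other groups used below are cortex after chronic consistent hypoxia (CCH) of the same length, and hippocampus after CIH, after CCH and from controls, again 3 arrays each; the CCH hippocampus serves only in the fit over all arrays and in checks. Nothing in the labels says that the 3 replicates of a group came from separate animals. The p-values thus measure the spread between these samples, which may be technical in part or in whole. In CIH cortex, the sex-linked genes Xist and Kdm5d, given below, set array 2 apart from arrays 1 and 3. Those 3 arrays are therefore not all repeats of 1 sample.

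Cells short of oxygen stabilise the transcription factor HIF, which switches on genes of glycolysis, red cell formation and vessel growth, while nitric oxide widens vessels. When oxygen comes back, as it does in each intermittent cycle, reactive oxygen species form. The first weeks after birth are also when oligodendrocytes wrap cortical axons in myelin, and cells of that lineage are known to be sensitive to low oxygen.

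The arrays showed 12581 to 13786 detected probes in CIH cortex and 13089 to 14527 in control cortex, where detected means a detection score above 0.99. Replicates correlated at r = 0.988 to 0.995. CIH cortex 2 stood apart: on the first principal component of the 6 arrays (44.1% of the variance) it lay at 21.7, against −14.4 to 2.9 on the other 5. It also gave 10.01 log2 units for Xist, the RNA of the inactive X chromosome, against 6.53 to 6.57 on the other 5 arrays, which goes against its label. Kdm5d, a gene of the Y chromosome, was undetected on CIH cortex 2 at 6.51 and on control cortex 2 at 6.71, against 6.78 to 6.92 on the other 4 arrays. Xist was also detected on CCH cortex 2 and 3, CIH hippocampus 2 and CCH hippocampus 3, and Kdm5d on none of them. Each gene called against control is therefore also given without CIH cortex 2. Of the cortical markers, Cux2 averaged 8.10 and Rorb 7.51 log2 units over the 6 arrays, against 7.10 and 6.99 on 9 hippocampal arrays. Tbr1, Fezf2, Neurod6 and Lamp5 had no named probe. The hippocampal genes Prox1 and Fibcd1 averaged 6.92 and 8.29 in the 6 cortical arrays, against 8.59 and 11.45 in hippocampus.

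Ddah1, the enzyme that breaks down the natural inhibitors of nitric oxide synthase, rose in CIH cortex, while the immediate early transcription factors Egr2 and Fosl2 both fell. To show what sequence lies ahead of these 3 genes, the 250 bases upstream of their annotated starts are shown as RefSeq gives them on GRCm38.p6. Capitals mark any match to ACGTG, 1 form of the core of a hypoxia response element. They also mark TGACG, the core of a cyclic AMP response element, and the CArG box, the serum response element. Ddah1 lies on the + strand at chr3:145758442-145758691, Egr2 on the + strand at chr10:67535249-67535498 (the first of 5 starts listed), and Fosl2 on the + strand at chr5:32136222-32136471.
Ddah1: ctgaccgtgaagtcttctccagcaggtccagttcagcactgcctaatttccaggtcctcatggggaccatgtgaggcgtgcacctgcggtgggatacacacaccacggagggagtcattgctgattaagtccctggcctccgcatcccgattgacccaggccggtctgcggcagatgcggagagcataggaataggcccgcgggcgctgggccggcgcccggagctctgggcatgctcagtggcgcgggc
Egr2: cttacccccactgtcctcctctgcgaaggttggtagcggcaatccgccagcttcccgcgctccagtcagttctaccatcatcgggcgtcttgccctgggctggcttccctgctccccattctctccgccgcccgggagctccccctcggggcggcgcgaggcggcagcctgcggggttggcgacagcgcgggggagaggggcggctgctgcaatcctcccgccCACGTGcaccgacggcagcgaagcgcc
Fosl2: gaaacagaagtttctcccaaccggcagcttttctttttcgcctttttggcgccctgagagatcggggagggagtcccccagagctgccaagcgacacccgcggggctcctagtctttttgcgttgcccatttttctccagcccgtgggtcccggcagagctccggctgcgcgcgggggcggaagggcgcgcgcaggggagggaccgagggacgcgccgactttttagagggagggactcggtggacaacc
The Egr2 window held 2 matches to ACGTG, on opposite strands and overlapping. The other windows held no match to the marked motifs on either strand. Other forms of the hypoxia response element core were neither searched for nor marked. Among 32851 upstream windows of the same length, ACGTG occurred in 16.6%, TGACG in 17.8% and the CArG box in 1.47%.

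Across 14664 measured probes, 22 differed between CIH and control cortex at an adjusted p under 0.05, which is 0.15% of those tested: 10 were higher (0.0682%) and 12 lower (0.0818%) in CIH. The test was limma's moderated test over all 18 arrays with Benjamini-Hochberg adjustment. With the arrays scaled to equal medians the split was 18 higher and 14 lower, and the median change of all probes was 0.07. Under the main normalization the changes of the 22 ran in size from 0.29 to 1.70 log2 units, with a median of 0.75. The median change of all probes was then 0.01. Of the 22 probes, 10 carry a gene name here, 3 higher and 7 lower, and 12 do not. Without the probe of Sspn, whose values are doubted below, there are 21, with 6 named falls. At all 22 the CIH and control arrays did not overlap; among all probes the 3 CIH arrays lay above the 3 control arrays at 7.86% and below them at 4.6%. CIH cortex 3 was the CIH array nearest to the control mean at 12 of the 22, against 38.7% of all probes. Without CIH cortex 2 the count of calls was 7, all among the 22, with Krt12, Ddah1 and Dctn4 the named genes still called. The counts without CIH cortex 1, control cortex 1 or control cortex 3 were 4, 7 and 10. A fit of the 6 arrays alone called 15 probes, 6 of them among the 22. Of these 6, Dctn4 was the only one with a gene name. Some named genes outside the 22 also passed in that fit. Without any of the 5 arrays on which Xist was detected, chosen after seeing the data, the count was 3, 1 of them among the 22, and no named gene passed; all 22 kept their sign.

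**Figure D1:**
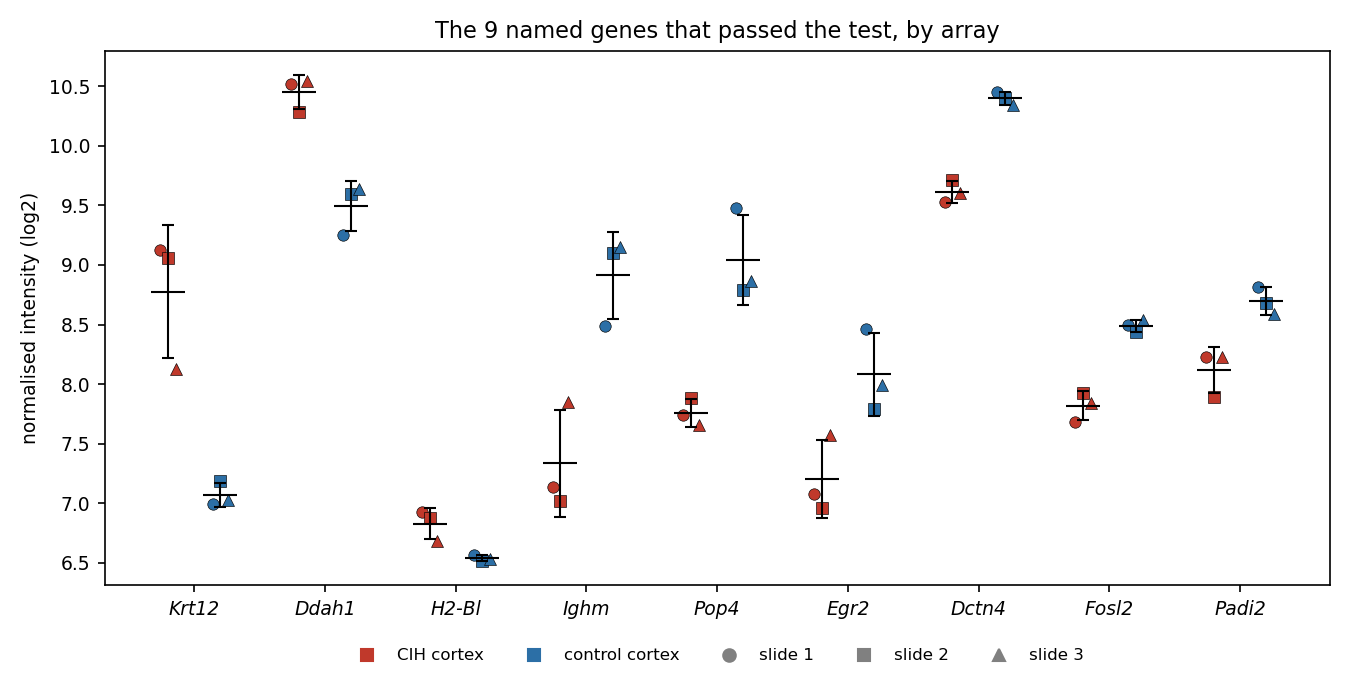
Normalised intensity (log2, vertical axis) of the 9 named genes that passed the test, with 3 CIH arrays (red, left) and 3 control arrays (blue, right) per gene, marker shape for the slide, and bars for the mean and SD. The groups do not overlap in any of the 9 genes; Krt12 shows the widest gap upward (1.70) and Ighm the widest downward (−1.58).

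Ddah1 hydrolyses asymmetric dimethylarginine, which blocks nitric oxide synthase. It read 10.52, 10.28 and 10.55 log2 units in CIH cortex, against 9.25, 9.60 and 9.64 in control cortex. Every CIH array was above every control array. The difference was 0.95 ± 0.14 (SE), a 1.94-fold rise (limma, adjusted p = 0.013, n = 3 each), and 1.04 without CIH cortex 2 (adjusted p = 0.021). The call was lost without control cortex 1, at 0.83 (adjusted p = 0.064), and without CIH cortex 1, at 0.92 (adjusted p = 0.088). Of 31 genes listed for nitric oxide, its inhibitors and its receptor, 9 were measured. Ddah1 alone passed the test, against 0.15% of all probes. The others with the smallest p were Prmt1, a methyltransferase that makes dimethylarginine in proteins, at 0.26 (adjusted p = 0.56), Ass1, which remakes arginine from citrulline, at 0.17 (adjusted p = 0.66), and the chaperone Hsp90aa1 at −0.66 (adjusted p = 0.80). The median of the 9 was 0.07, against 0.01 for all probes.

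Krt12, a keratin known from the corneal epithelium, showed the largest rise among called probes. Its values were 9.13, 9.06 and 8.13 log2 units in CIH cortex, against 7.0, 7.18 and 7.03 in control cortex. CIH cortex 3 was nearer to the controls than the other CIH arrays, and the groups stayed apart. The difference was 1.70 ± 0.22 (SE), or 3.26-fold (limma, adjusted p = 0.0065, n = 3 each); it was 1.56 without CIH cortex 2 (adjusted p = 0.045), and without CIH cortex 1 the call was lost at 1.53 (adjusted p = 0.056). None of the other 4 measured keratins passed; Krt10 lay at 0.22 (adjusted p = 0.44), Krt9 at 0.07 (adjusted p = 0.85) and Krt18 at 0.04 (adjusted p = 0.95).

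Class I histocompatibility genes, which display peptides to T cells, lay on the high side in CIH cortex. Of 10 measured genes on the list of class I antigen presentation, 9 were above control, 5 of them without overlap, and 1 was called. These counts include H2-Bl and H2-D1, which were detected on no control cortex array. The detection filter kept both through other arrays, so their place above control is not independent of that filter. Of all probes 53.4% lay above control, 7.86% without overlap above it, and 0.15% were called. The called gene, H2-Bl, read 6.92, 6.88 and 6.68 log2 units in CIH cortex, against 6.56, 6.52 and 6.53 in control cortex. Its probe was above background on 2 CIH arrays and no control array, so its rise is at least 1.09-fold (limma, adjusted p = 0.037), and with 1 array left out it passed without CIH cortex 3 only (adjusted p = 0.12 to 0.18 without any other array, the highest without CIH cortex 2). H2-D1, a classical class I heavy chain, read 8.76, 8.47 and 7.71 in CIH cortex, against 6.53, 6.57 and 6.55 in control cortex. It was detected on all 3 CIH arrays and no control array, at least 3.03-fold higher, and did not pass (limma, adjusted p = 0.060). H2-T23, a non-classical chain, differed by 0.23 (adjusted p = 0.24) and Psme1, an activator of the proteasome, by 0.18 (adjusted p = 0.84), whereas B2m, the light chain shared by class I molecules, differed by −0.01 (0.04 with the arrays scaled to equal medians). Under that scaling the median of all probes was 0.07. The list's median in the main run was 0.19, and 0.18 without CIH cortex 2. Probes of class I genes may share signal, since the genes are near copies and CD-1 mice are not inbred; this was not tested. None of the 3 measured interferon response genes passed, and their median was 0.01.

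The immediate early genes are switched on within minutes of neuronal activity or growth signals. Egr2, a zinc finger factor also needed for peripheral myelination, read 7.08, 6.96 and 7.58 log2 units in CIH cortex, against 8.46, 7.79 and 8.0 in control cortex. The groups did not overlap, with CIH cortex 3 nearest to the controls. It fell by 0.88 ± 0.15 (SE), to 0.54 of control (limma, adjusted p = 0.044, n = 3 each). Fosl2, a partner in the AP-1 factor, read 7.68, 7.93 and 7.84 in CIH cortex, against 8.50, 8.43 and 8.54 in control cortex. It fell by 0.67 ± 0.12 (limma, adjusted p = 0.044; 0.062 with the slide as a block). Without CIH cortex 2 the differences were −0.75 for Egr2 and −0.72 for Fosl2, and neither passed (adjusted p = 0.18 and 0.12). Egr2 passed without control cortex 2 or CIH cortex 3 and lay at −0.92 to −0.69 without any of the other arrays (adjusted p = 0.10 to 0.18), while Fosl2, at −0.72 to −0.60, lost its call with any array left out (adjusted p = 0.11 to 0.17). Of the 8 measured immediate early genes, these 2 passed, against 0.15% of all probes. Junb, another AP-1 member, differed by 0.22 (adjusted p = 0.93) and Nr4a2 by −0.17 (adjusted p = 0.95). The list's median was −0.02, or 0.04 with the arrays scaled to equal medians, where the median of all probes was 0.07.

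Ighm, the constant region of immunoglobulin M, had the largest fall among called probes. It read 7.14, 7.02 and 7.85 log2 units in CIH cortex, against 8.49, 9.10 and 9.15 in control cortex. It fell by 1.58 ± 0.24 on the log2 scale (SE), 2.99-fold (limma, adjusted p = 0.020, n = 3 each), and −1.42 without CIH cortex 2 (adjusted p = 0.12). The call was also lost without CIH cortex 1, control cortex 2 or control cortex 3, at −1.49 to −1.46 (adjusted p = 0.088 to 0.10). Of the 10 listed lymphocyte genes with a probe, Ighm and Ebf1, a factor of early B cells that other cells also use, were measured. Ebf1 differed by −0.09 (adjusted p = 0.84). Igkc, Jchain, Ighg1, Cd3e, Rag1 and Cd52 were detected on none of the 6 arrays, Ptprc, the common leukocyte antigen, on none by either probe, and Cd74 on 1 control array only; Cd79a and Ms4a1 had no named probe. Of 300 probes for immunoglobulin gene segments, 10 were measured, 6 above and 4 below control, with none called. In bulk tissue, fewer cells of a type and less RNA per cell cannot be told apart.

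Dctn4, a subunit of dynactin, the complex that links the motor dynein to its cargo, fell in a way that no single array carried. Its values were 9.53, 9.71 and 9.60 log2 units in CIH cortex, against 10.45, 10.40 and 10.34 in control cortex. The fall was 0.78 ± 0.08 (SE), 1.72-fold (limma, adjusted p = 0.0010, n = 3 each), and it passed with each of the 6 arrays left out, at −0.83 without CIH cortex 2 (adjusted p = 0.0041). Its adjusted p was 0.054 without the 5 arrays that had Xist. A second, dimmer Dctn4 probe differed by 0.07 (adjusted p = 0.93), so the fall rests on 1 probe. None of the other 14 measured dynein and dynactin genes passed. The nearest were Ndel1, a dynein regulator, at 0.14 (adjusted p = 0.53), the adaptor Bicd2 at −0.12 (adjusted p = 0.68) and Actr10, a dynactin subunit, at 0.19 (adjusted p = 0.89).

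Pop4, a protein of ribonuclease P, which trims the 5′ ends of transfer RNA precursors, fell as well. It read 7.74, 7.88 and 7.65 log2 units in CIH cortex, against 9.48, 8.79 and 8.87 in control cortex. The fall was 1.29 ± 0.22 (SE), 2.44-fold (limma, adjusted p = 0.037; 0.062 with the slide as a block), and it was −1.35 without CIH cortex 2 (adjusted p = 0.12). With 1 array left out the call was kept without control cortex 2 only (adjusted p = 0.090 to 0.16 for the others, at −1.37 to −1.07). The other 14 measured genes of ribonuclease P and tRNA processing did not pass. Another subunit, Pop5, differed by 0.33 (adjusted p = 0.35) and Pop1 by 0.08 (adjusted p = 0.91), so that the list's median was 0.08.

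The myelin list ran the lowest of all lists with 5 or more measured genes. Of 20 measured myelin and mature oligodendrocyte genes, 19 were below control, 11 without overlap between the groups, and 1 was called. Of all probes 46.6% lay below control, 4.6% below it without overlap, and 0.15% were called. The called gene was Padi2, the deiminase that converts arginines of myelin basic protein to citrulline. It read 8.23, 7.90 and 8.23 log2 units in CIH cortex, against 8.82, 8.68 and 8.58 in control cortex. It fell by 0.58 ± 0.10 (SE), 1.49-fold (limma, adjusted p = 0.037; 0.052 with the slide as a block), and was −0.47 without CIH cortex 2 (adjusted p = 0.13). With 1 array left out it passed without CIH cortex 3 only, and lay at −0.63 to −0.47 otherwise (adjusted p = 0.070 to 0.16). Lpar1, a lysophosphatidic acid receptor of oligodendrocytes, differed by −0.53 (adjusted p = 0.28), Opalin, a membrane protein of central myelin, by −0.42 (adjusted p = 0.31) and Tmem125 by −0.34 (adjusted p = 0.39).

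Over the 20 myelin genes the mean level was 8.74 to 8.88 log2 units in the CIH arrays, against 9.10 to 9.14 in the control arrays. The median difference was −0.31, and −0.38, −0.34 and −0.27 within the 3 slides. It ran from −0.37 to −0.26 with 1 of the 6 arrays left out. This pattern was already known from these data when the list was drawn up. Of 4 measured genes of oligodendrocyte precursors none passed, and their median was −0.03, or 0.02 with the arrays scaled to equal medians and 0.06 without CIH cortex 2. For neighbouring cell types, the medians were 0.12 for 10 astrocyte genes, −0.00 for 5 microglial genes, 0.05 for 6 endothelial genes and −0.01 for 9 genes of excitatory neurons, with no gene called; equal medians put the microglial and excitatory values at 0.03 and 0.01. With equal medians the median of all probes was 0.07. No mural gene was measured.

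**Figure D2:**
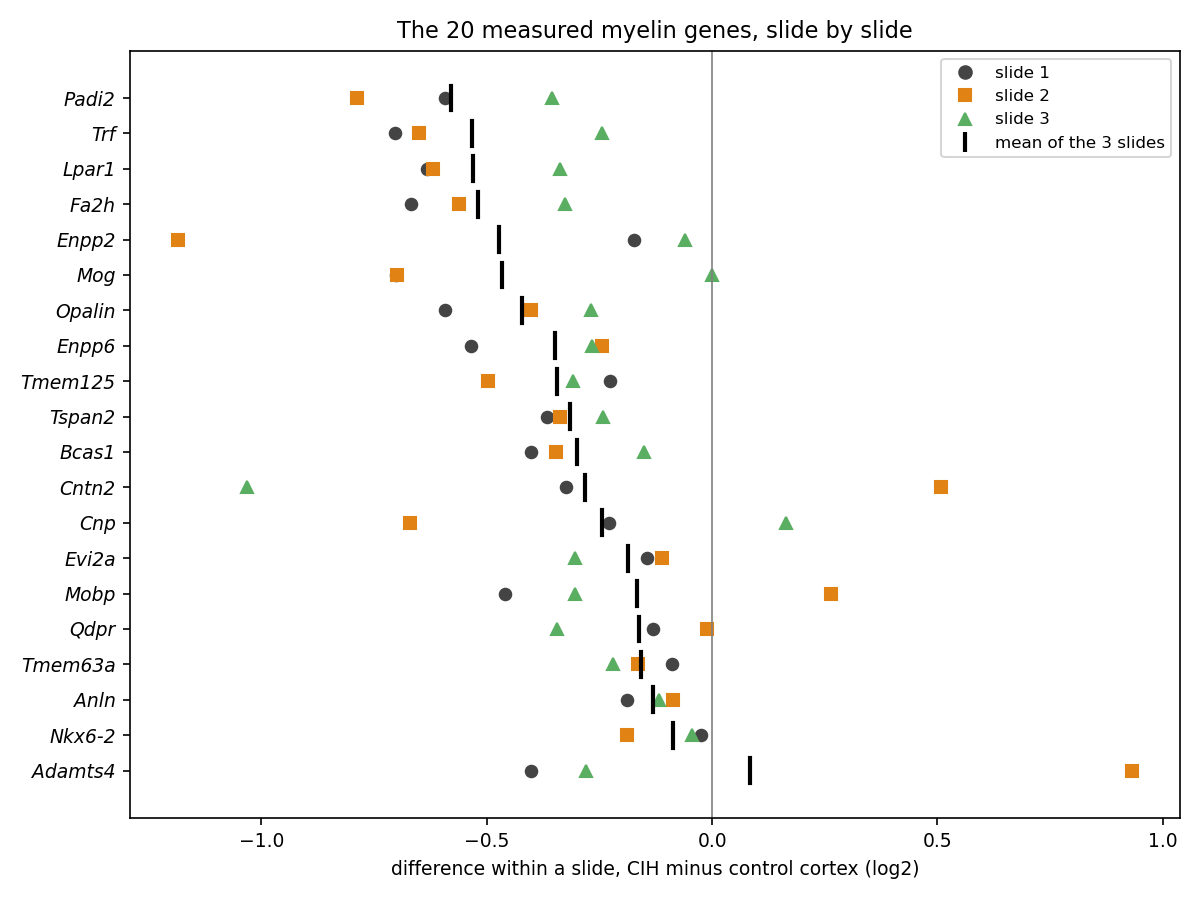
Difference between the CIH and control arrays of the same slide (log2, horizontal axis) for each of the 20 measured myelin genes, with marker shape and colour for the slide and a bar for the mean of the 3. The means of 19 genes lie below 0, from −0.58 (Padi2) to −0.09 (Nkx6-2), and Adamts4 lies at 0.08; Adamts4, Mobp and Cntn2 lie above 0 on slide 2 and Cnp on slide 3.

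No gene on the lists usually read as the response to low oxygen passed the test. Of 10 measured HIF target genes none passed, with a median of 0.02 and a range of −0.40 to 0.22. Angptl4, a secreted lipase inhibitor, differed by 0.21 (adjusted p = 0.68), and Pfkfb3, which drives glycolytic flux, by −0.22 (adjusted p = 0.84). None of 19 glycolytic genes passed (median 0.01), and Ldha, lactate dehydrogenase, read 11.69, 11.72 and 11.59 log2 units in CIH cortex, against 11.49, 11.72 and 11.65 in control cortex.

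The hemoglobin genes, whose RNA can come from blood left in the tissue, were also not called. Hba-a1 read 13.51, 13.43 and 13.43 log2 units in CIH cortex, against 12.98, 12.85 and 13.29 in control cortex. Its groups did not overlap, and the difference of 0.41 ± 0.13 (SE) did not pass (limma, adjusted p = 0.43). Hbb-b1 differed by 0.04 (adjusted p = 0.99) and Hbb-b2 by 0.13 (adjusted p = 0.99), with groups that overlapped. Of 14 antioxidant and oxidant genes none passed; Prdx1, a peroxide-reducing peroxiredoxin, had the smallest p, at 0.27 (adjusted p = 0.29), and Gstm1, a glutathione transferase, lay at −0.29 (adjusted p = 0.72). The proteins of the heat shock and unfolded protein response lay below control in 10 of 13 genes with none called (median −0.07, or 0.01 with the arrays scaled to equal medians), among them Hspb1, a small heat shock protein, at −0.31 (adjusted p = 0.13). With equal medians the median of all probes was 0.07.

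**Figure D3:**
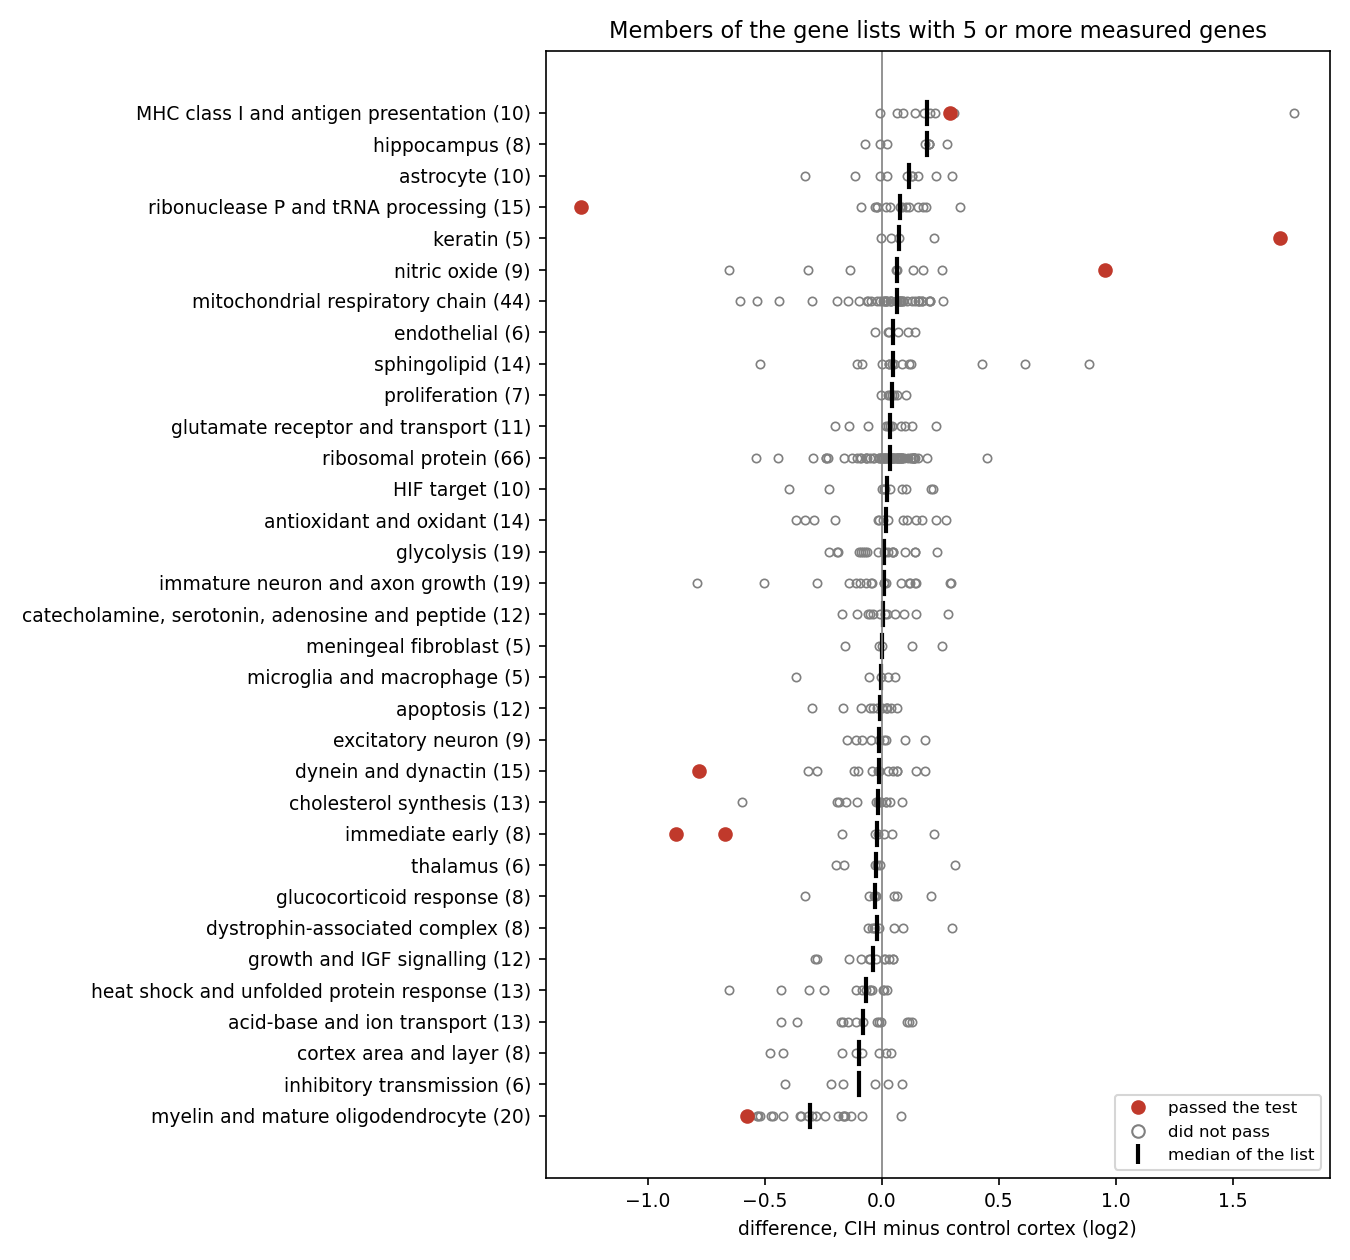
Differences between CIH and control cortex (log2, horizontal axis) of the measured members of each gene list with 5 or more of them, numbers of genes drawn in brackets, filled red points for genes that passed the test and black bars for list medians. Sspn is not drawn. Most lists straddle 0, and the myelin list has the lowest median (−0.31).

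The next genes did not reach the threshold and were picked partly because their groups did not overlap. Among all probes, 7.86% lay above control without overlap and 4.6% below it. Acer2, a Golgi ceramidase, read 7.81, 7.81 and 7.84 log2 units in CIH cortex, against 7.21, 7.07 and 7.34 in control cortex, a difference of 0.61 ± 0.12 (limma, adjusted p = 0.062). B3galt6, a galactosyltransferase that builds the linker of proteoglycans, was detected on all 3 CIH arrays and no control array, at least 1.67-fold higher (adjusted p = 0.060). Its detection on the CIH arrays meets the detection filter by itself, so its place above control is not independent of that filter. Rpa3, a subunit of the single-stranded DNA binding protein, differed by 0.71 (adjusted p = 0.21) and Zfp870 by 0.48 (adjusted p = 0.067). On the low side, Fstl5, a secreted follistatin-like protein, differed by −0.93 (adjusted p = 0.067), Brat1, a partner of BRCA1 and ATM, by −0.97 (adjusted p = 0.080), Slc25a27, a mitochondrial uncoupling protein of neurons, by −0.48 (adjusted p = 0.067), and Sik2, a salt-inducible kinase, by −0.18 (adjusted p = 0.091). Krit1, mutated in cerebral cavernous malformations, differed by −0.58 (adjusted p = 0.083) at one probe and by −0.07 at its other.

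Of the 12 unnamed called probes, 7 were higher and 5 lower. The probe with the smallest adjusted p of all, scl22489.6_38-S, read 11.93, 11.92 and 11.81 log2 units in CIH cortex, against 11.07, 11.01 and 11.11 in control cortex, a rise of 0.82 ± 0.07 (limma, adjusted p = 0.00014). A second, scl24398.4.1_27-S, rose by 0.74 ± 0.07 (adjusted p = 0.000499). On the low side, scl20013.3_0-S differed by −0.60 ± 0.09 (adjusted p = 0.018) and scl16475.25_424-S by −0.62 ± 0.09 (adjusted p = 0.020). The rises passed with each array left out. The falls lost their call without control cortex 1 or 3 or CIH cortex 1 or 2, at −0.64 to −0.56 and −0.63 to −0.57 (adjusted p = 0.056 to 0.12 and 0.085 to 0.12).

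Presence and absence gave a second view, over all 46040 probes that target transcripts. On all 3 CIH arrays and no control array 11 probes were detected (0.0239%), and on all 3 control arrays and no CIH array 45 (0.0977%). At a detection score above 0.95 the counts were 26 and 62. The CIH-only probes with a gene name were H2-D1, B3galt6, Arhgef15 and Rspo4, and the largest named control-only difference, apart from the probe of Sspn, was that of Akr1e1, an aldo-keto reductase, at least 1.16-fold lower in CIH (adjusted p = 0.42). The number of probes detected per array ranged lower in CIH than in control, with ranges that overlapped, and its part in these counts was not tested.

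The called probe of Sspn, sarcospan of the dystrophin complex, is given no change. Its intensity was 318.0, 268.0 and 269.7 in CIH cortex, against 466.5, 406.6 and 376.6 in control cortex, while its detection scores on the CIH arrays were 0.064, 0.022 and 0.134. Other probes with such scores on those arrays had intensities of 65.3 to 66.3, 50.3 to 61.2 and 59.2 to 59.4. It was the only probe of the export whose intensity stood so far above its score, on all 12 hypoxia arrays and on none of the 6 control arrays. The intensity less the constant that separates the deposited series values from the export (252.1, 217.2 and 210.4 on the CIH arrays) falls in the range of those other probes.

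CIH was then set against CCH in cortex. The labels state no oxygen levels, and the groups held different positions on the slides. The rhythm of hypoxia, its depth and the slide position can therefore not be told apart here. At an adjusted p under 0.05, 69 probes differed (0.471%), 36 higher (0.245%) and 33 lower (0.225%) in CIH, and 20 of them carry a gene name. Without CIH cortex 2 there were 31, without CIH cortex 1 or 3 42 and 35, and without CCH cortex 1 or 3 42 and 37. On CCH cortex 2 and 3, as on CIH cortex 2, Xist was detected. Without the 5 arrays that had it, 2 CIH arrays against 1 CCH array, which is taken to vary like the other groups, gave 368 calls, 36 of them among the 69, and all 69 kept their sign. The genes called against control divided here. Krt12 was 1.52 ± 0.22 higher in CIH than in CCH (limma, adjusted p = 0.0054), with 7.71, 7.05 and 7.0 log2 units on the CCH arrays. Dctn4 was lower in CIH than in CCH by −0.81 ± 0.08 (adjusted p = 0.00026) and Pop4 by −1.11 ± 0.22 (adjusted p = 0.038). Padi2 was higher in CIH than in CCH by 0.51 ± 0.10 (adjusted p = 0.032), with 7.50, 7.62 and 7.70 on the CCH arrays, the lowest of the 3 groups. With 1 array left out the calls of Krt12 and Dctn4 held, that of Pop4 was lost each time (−1.17 to −1.05, adjusted p = 0.095 to 0.13), and that of Padi2 was kept without CIH cortex 2 only (adjusted p = 0.065 to 0.15 otherwise, at 0.45 to 0.56). With the slide as a block, Pop4 and Padi2 had an adjusted p of 0.066 and 0.051. Without the arrays that had Xist, Krt12 lay at 0.92 (adjusted p = 0.16) and Pop4 at −1.12 (adjusted p = 0.16), while Dctn4 and Padi2 passed.

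For other called genes no difference between the exposures was found. Ddah1 differed between CIH and CCH by −0.10 ± 0.14 (adjusted p = 0.86), Ighm by 0.28 ± 0.24 (adjusted p = 0.77), Egr2 by 0.09 ± 0.15 (adjusted p = 0.91), Fosl2 by −0.12 ± 0.12 (adjusted p = 0.80) and H2-Bl by 0.14 ± 0.05 (adjusted p = 0.34). A p that misses the threshold does not show that the exposures acted alike.

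Genes with no call against control also parted CIH from CCH. Nudt19, a peroxisomal hydrolase of coenzyme A, read 10.98, 11.60 and 11.49 log2 units in CIH cortex, against 9.49, 9.59 and 9.62 in CCH cortex, a difference of 1.79 ± 0.15 (limma, adjusted p = 2.95e-05), and its control arrays lay at 11.37 to 11.43. Fgfr1op2 was lower in CIH than in CCH by −2.49 ± 0.12 (adjusted p = 7.8e-08), Acer2 by −1.63 ± 0.12 (adjusted p = 8.71e-06), Fstl5 by −1.04 ± 0.18 (adjusted p = 0.022), Hbb-b1 by −1.08 ± 0.20 (adjusted p = 0.031) and Hba-a1 by −0.84 ± 0.13 (adjusted p = 0.0076). The lysosomal sulfatase Arsa was 0.67 ± 0.13 higher in CIH (adjusted p = 0.035), Rgs8, a regulator of G protein signalling, 0.58 ± 0.07 higher (adjusted p = 0.00061) and the fatty acid desaturase Scd2 0.47 ± 0.06 higher (adjusted p = 0.00093). Against control, CIH and CCH cortex lay at −0.10 and 2.39 for Fgfr1op2, 0.61 and 2.25 for Acer2, and −0.93 and 0.11 for Fstl5. They lay at 0.04 and 1.12 for Hbb-b1, 0.41 and 1.26 for Hba-a1, and 0.43 and −0.24 for Arsa. The values were 0.08 and −0.50 for Rgs8 and 0.07 and −0.40 for Scd2. Of these 9 genes, 3 lost their call between CIH and CCH with 1 array left out. They were Arsa without CCH cortex 3 or any CIH array (0.63 to 0.74, adjusted p = 0.065 to 0.14), Hbb-b1 without CCH cortex 1 or 3 or CIH cortex 2 or 3 (−1.08 to −0.93, adjusted p = 0.091 to 0.14), and Fstl5 without any array but CCH cortex 2 (−1.07 to −0.90, adjusted p = 0.070 to 0.095). Without the arrays that had Xist, Hbb-b1, Fstl5 and Hba-a1 lost their call, at −1.17, −1.12 and −0.92 (adjusted p = 0.051, 0.060 and 0.072). Across the myelin list, 14 of 20 genes were higher in CIH than in CCH, with a median difference of 0.15, against 0.002 for all probes.

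Last, the CIH difference in cortex was set against that in hippocampus, whose arrays share no control with cortex. The test of the difference between the tissues called 0 of 14664 probes (0%) in limma, with or without the slide as a block; 383 probes had an unadjusted p under 0.05. In hippocampus itself CIH called 9 probes (0.0614%). Of these, 8 were among the 22 called in cortex, and all 22 had the same sign in hippocampus, against 52.6% of all probes. Without Sspn these counts are 8 called in hippocampus, 7 of them among 21. CIH hippocampus 2 had Xist, as did CIH cortex 2, and without the 5 such arrays the tissue test called 0 probes (398 at an unadjusted p under 0.05), and 3 were called between CIH and control in hippocampus. Whether a cortical and a hippocampal sample of 1 number came from the same animal is not stated. On CCH cortex 2 Xist was detected and Kdm5d was not, and on CCH hippocampus 2 the reverse held. As labelled, those samples are not from 1 animal.

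Some genes were called in both tissues. Ddah1 lay 0.95 higher in CIH cortex and 0.96 higher in CIH hippocampus, Dctn4 −0.78 and −0.79, Pop4 −1.29 and −1.65. Hippocampal Ddah1 read 10.13, 10.09 and 10.32 log2 units under CIH, against 8.95, 9.34 and 9.37 in control. These 3 genes passed the test in each tissue (adjusted p in hippocampus of 0.010, 0.0013 and 0.0059). H2-D1 read 8.73, 8.69 and 7.93 in CIH hippocampus, against 6.55, 6.53 and 6.58 in control hippocampus, near the floor of the scale, and was not called.

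For others the hippocampal value was small. Krt12 lay at 1.70 in cortex and 0.40 in hippocampus, a difference of 1.3 ± 0.32 (unadjusted p = 0.0010). Egr2 lay at −0.88 and −0.08 (unadjusted p = 0.0026) and Fosl2 at −0.67 and −0.04 (unadjusted p = 0.0020). Krt12 was near the floor of the scale in control hippocampus, at 6.55 to 6.66, against 6.84 to 7.14 under CIH. Egr2 and H2-Bl were near that floor in hippocampus both under CIH and in control. Egr2 lay at 6.63 to 6.71 under CIH and 6.70 to 6.80 in control, and H2-Bl at 6.57 to 6.60 and 6.55 to 6.57. Changes near the floor are understated. Upf2, a factor of nonsense-mediated decay, was not called in cortex and lay at 0.03 in cortex and −0.41 in hippocampus (unadjusted p = 0.0020). All have an adjusted p of 1.0 in the limma test across probes, so no gene is shown to respond differently in the tissues.

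**Figure D4:**
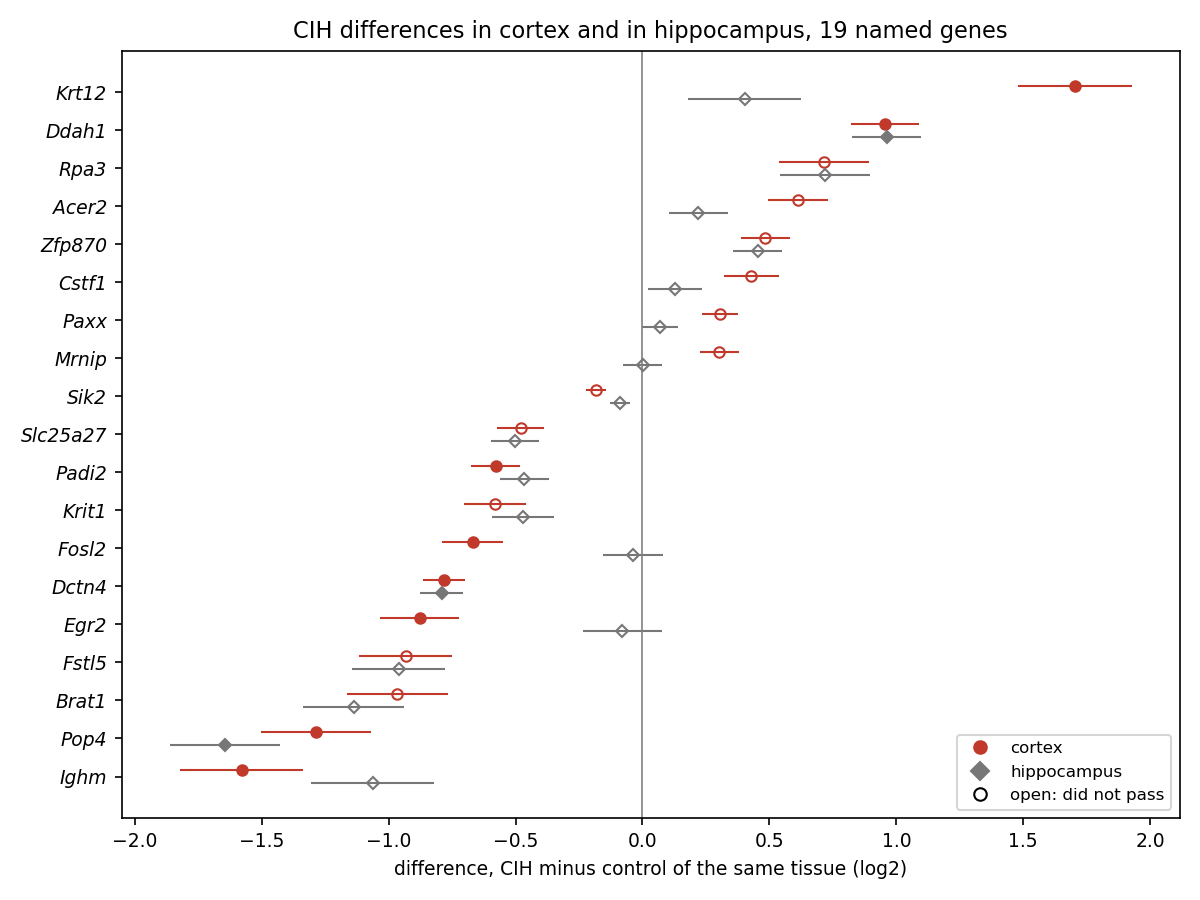
Difference between CIH and control of the same tissue (log2, horizontal axis; bars are SE) for 19 genes named by rule in cortex and detected on control arrays, cortex in red above hippocampus in grey, filled where the gene passed the test. Ddah1, Dctn4 and Pop4 are filled in both tissues; Egr2 and Fosl2 lie near 0 in hippocampus, and Krt12 lies at 0.40 there.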

How the data were processed

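The authors amplified 100 ng of total RNA per sample with a biotin label and hybridised it to bead arrays, per the labels' protocols. The deposited export gives an intensity and a detection score per probe, without normalization per the file headers. The submitters' processing notes name BeadStudio 2.0 and the export's header 1.5.1.3. Unused were 108 further columns. The deposited series values, intensities less a constant per array (0 for control cortex 2), served as an alternative only. The series text calls the CIH mice CCH treated; titles and sample descriptions say CIH and were followed.

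Intensities were corrected for background from 1 minus the score, given an offset of 16, quantile normalised and put on a log2 scale with neqc (limma 3.58.1, R 4.3.3). Probes scoring above 0.99 on at least 3 of 18 arrays were kept; 80 control probes were left out. One limma model (lmFit, eBayes) gave each group a mean over 18 arrays and had no covariate; its two-sided p-values were adjusted by Benjamini and Hochberg over 14664 probes. The code was tested on simulated data. A fold is bounded ("at least") where a group's arrays had no detected signal. Values near the offset understate change, and 3 arrays a group limit the precision.

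The hybridization log puts each replicate number on 1 of 3 slides, 1 array per group, so the replicate block is the slide; group and position on the slide cannot be told apart. Deviations from group means correlated at 0.32, 0.28 and −0.02 for equal numbers, −0.36 to 0.15 for unlike ones.

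A key from probes to genes was not used here. Zero-padded numbers in probe names were read as NCBI gene IDs (82.6% of 11897 match a mouse gene of GRCm38.p6, 46.0% and 46.2% when shifted by 1); 4650 probes, 31.7%, have a name. Named genes were up to 12 rises and 12 falls, by size among calls and then by p among genes whose groups did not overlap, each list's calls and smallest p, and Ddah1, Sspn, Hba-a1, Hbb-b1, Ldha, Acer2 and Nudt19; genes without a measured change are named only as undetected, and a few listed genes are not reported here. The members, the 41 gene lists and the rule were chosen with earlier results of these data known. Alternatives were the block, background correction, scaling, offset, filter, arrays in the fit, the series values, a score of 0.95, leaving out each array and, chosen after seeing the data, leaving out the 5 arrays with Xist.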

Additional observations from a re-analysis of the deposited data

How the results depend on the processing

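Unless said otherwise, the alternatives were fitted over all 18 arrays, as the main test was. Against the 22 probes called between CIH and control cortex, 53 were called with no background correction, 14 with an offset of 50, 6 with no filter on dim probes (46040 tested) and 7 with the deposited series values (7385 tested, where the median of all probes lay at −0.10). With the replicate block, which is the slide, 23 were called, 16 of them among the 22, and Pop4, Fosl2, Padi2 and Sspn were lost. Leaving out 1 array gave 4 to 20, and the lowest counts were 4 without CIH cortex 1, 7 without CIH cortex 2 or control cortex 1 and 10 without control cortex 3. Between CIH and CCH cortex the 69 became 36 with no filter and 23 with the series values. With only the 6 CIH and CCH cortex arrays in the fit they became 33. Leaving out 1 array gave 31 to 49, and the block 80, 65 of them shared. Without a filter Krt12 and Dctn4 were the named genes still called against control. In a fit of only the 6 CIH and control cortex arrays Dctn4 was. The tissue difference gave 0 calls under every alternative run. Without the 5 arrays that had Xist, chosen after seeing the data, 3 probes were called against control and 368 against CCH, and signs turned for Upf2 (−0.012), B2m (0.016) and Adamts4 (−0.11). At a detection score above 0.95, 26 probes were detected in CIH only. Under median scaling, where the median of all probes lay at 0.071, signs turned for Nudt19 (0.027) and B2m (0.038). With the series values they turned for Ldha (−0.010), Upf2 (−0.052) and Adamts4 (−0.034). With 1 array left out, Ldha ran from −0.020 to 0.10, B2m from −0.054 to 0.022, Hbb-b1 from −0.10 to 0.19, Hbb-b2 from −0.24 to 0.39, Adamts4 from −0.15 to 0.24, Upf2 from −0.012 to 0.070 and Nudt19 from −0.17 to 0.15. The causes were not tested. Signal near background limits what dim probes can show.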

Other observations

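Other gene groups of the cortex gave shifts without calls against control, where 53.4% of all probes lay above 0. The median of all probes was 0.01, or 0.07 with the arrays scaled to equal medians. Of 8 measured genes listed for hippocampal fields, 6 were higher in CIH cortex, with a median of 0.19 (0.095 to 0.17 with 1 array left out, lowest without control cortex 3, and 0.10 without CIH cortex 2). Bok, a relative of the apoptosis regulator BCL2, differed by 0.28 (limma, adjusted p = 0.56) and C1ql2, a C1q-like protein of mossy fibre synapses, by 0.20 (adjusted p = 0.93). Of 8 genes of cortical areas and layers, 6 were lower, with a median of −0.10, or −0.027 without CIH cortex 1 and −0.023 with the arrays scaled to equal medians. Among them was Etv1, a factor of layer 5 neurons, at −0.48 (adjusted p = 0.89). The part of the dissected tissue in these medians was not tested.

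Of 44 genes of the mitochondrial respiratory chain, 32 were above control, with a median of 0.06 (0.024 without control cortex 2, 0.035 without CIH cortex 2, 0.13 with equal medians), and Cox5b, a subunit of cytochrome oxidase, had the smallest p at 0.21 (adjusted p = 0.48). Of 66 ribosomal protein genes, 45 were above control, with a median of 0.04 (0.0043 without control cortex 2, 0.067 without control cortex 1, 0.12 with equal medians); Rpl10a differed by 0.45 (adjusted p = 0.56). Of 13 cholesterol synthesis genes, 9 lay below control at a median of −0.02, or 0.01 with the arrays scaled to equal medians. With equal medians the median of all probes was 0.07. None of these genes passed the test.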
